A study of Homo sapiens with 4 samples.

Results

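The genes of the mitochondrial protein import machinery were examined by RNA-seq in a human T cell leukemia line, Jurkat, in which SOX4, a transcription factor, had been reduced. Members were the protein-coding genes whose symbol starts with TIMM or TOMM and a digit, together with DNLZ, GRPEL1, GRPEL2, PAM16, PMPCA, PMPCB, SAMM50, MTX1 and MTX2. This gave 34 genes of the 64252 gene IDs in the deposited count table. A further 23 symbols that fit the pattern were left out because they are not protein-coding, 21 of them processed pseudogenes. One group of cells carried a short hairpin RNA that targets SOX4 (sh-SOX4, 2 libraries), and the other a scrambled hairpin as control (sh-Scb, 2 libraries). Neither the position that the hairpin targets nor whether the cells were a clone or a pool is given in the sources used here.

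Most mitochondrial proteins are encoded in the nucleus, made in the cytosol and taken into the organelle as unfolded precursors. The TOM complex of the outer membrane is the common entry gate. From there precursors go to the SAM complex for outer membrane barrels, to the small TIM chaperones of the intermembrane space, to the TIM22 complex for carrier proteins of the inner membrane, or to the TIM23 channel, whose matrix motor is driven by the HSP70 chaperone HSPA9. The matrix processing peptidase then removes the targeting sequence. T cells that divide keep building mitochondria, and draw on this route for respiratory chain subunits and matrix enzymes.

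Library totals were 32872606 and 30830081 counts in sh-SOX4 and 36636219 and 29093287 in sh-Scb. Levels are given as TMM-scaled CPM, counts relative to the scaled library total, and 3 counts in a library amount to between 0.0819 and 0.103 CPM. SOX4 itself had 6049 and 5914 counts in the sh-SOX4 libraries, against 10246 and 8344 in the sh-Scb libraries. This was 71.1% of the sh-Scb level in CPM, with an adjusted p of 1.24e-05 in edgeR's quasi-likelihood test, which is the test behind every adjusted p here unless another is named. The 12 T cell and Jurkat markers summed to 2422 and 2429 CPM in sh-SOX4 and to 1895 and 1888 CPM in sh-Scb. At an adjusted p under 0.05, 8 of them rose and 2 fell, CD247 and PTCRA. Over all IDs tested, 23.2% were higher and 20.9% lower at that threshold. Among IDs with at least 10 CPM in 2 libraries, 33.1% were higher and 33.1% lower. Of the fixed markers of other cells, the 3 epithelial genes summed to at most 0.537 CPM in any library, the 4 myeloid genes to at most 1.34 CPM and the 3 erythroid genes to at most 1.28 CPM. The 4 B cell markers summed to 14.6 and 14.1 CPM in sh-SOX4 and to 68.3 and 66.5 CPM in sh-Scb, nearly all of it CD79A. The 3 fibroblast markers summed to 17.4 and 17.4 CPM in sh-SOX4 and to 24.5 and 25.9 CPM in sh-Scb, nearly all of it COL1A1. Transcripts of the mitochondrial genome took 6.17% and 6.23% of counts in sh-SOX4, against 4.75% and 4.81% in sh-Scb, and the part of this in the changes below was not tested.

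Transcripts of the import machinery were higher almost throughout when SOX4 was reduced. Of the 33 members that passed the filter on low counts, 26 rose and 1 fell in sh-SOX4 at an adjusted p under 0.05, and 6 did not pass the test. Over all 19897 gene IDs tested, 44.1% were called, 23.2% higher and 20.9% lower. With scaling to library totals alone, 24 members rose and 1 fell, while 40.8% of all calls were higher in place of 52.5%, and the median log2 fold change of all IDs was -0.11. The members are well expressed, and in a fit of the 10797 IDs with at least 10 CPM in 2 libraries 33.1% were called higher and 33.1% lower, where 23 of 30 members were called higher and 1 lower. The median log2 fold change was 0.62 over the tested members, a 1.53-fold difference, and -0.01 over all IDs tested. In these bulk libraries a change in the number of cells that express a gene and a change in RNA per cell cannot be told apart.

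**Figure D1:**
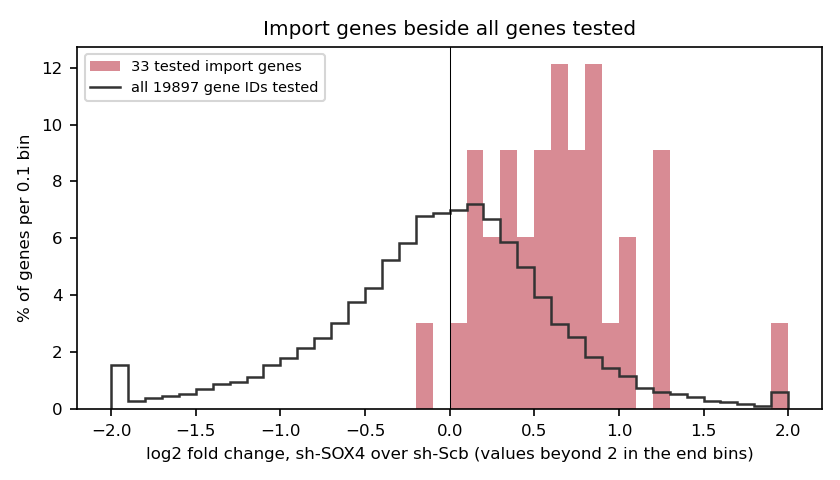
Distribution of the log2 fold change of sh-SOX4 over sh-Scb (x axis) as the percentage of genes in each bin (y axis), for the 33 tested import genes (filled) and all 19897 gene IDs tested (line). The import genes centre on 0.62 and all IDs on -0.01; the filled bar at the right end is TOMM6, which is not called.

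The 26 genes that rose did so by modest amounts, from 1.12-fold for TOMM20 to 2.46-fold for TIMM13. A log2 fold change of at least 1 with a call was seen for 5 of them, TIMM13, DNLZ, TOMM40, TIMM10 and GRPEL1, where 3.39% of all IDs tested were called higher by that much. Another 15 lay between 0.5 and 1 on the log2 scale and 6 below 0.5. The 2 sh-SOX4 libraries lay above both sh-Scb libraries for 28 of the 33 tested members, and below them for 1. Over all IDs tested, the corresponding shares were 36.3% and 36.6%. Summed over the 34 members, the level was 1998 and 1931 CPM in the sh-SOX4 libraries and 1346 and 1259 CPM in the sh-Scb libraries, a ratio of 1.51. Because the TOMM6 row swings between libraries, the sum was also taken without it, and was 1909 and 1928 CPM in sh-SOX4 against 1342 and 1250 CPM in sh-Scb, a ratio of 1.48. The filter removed TOMM20L alone, and no tested member had fewer than 48 counts in any library, so none was tested because of its level in 1 group only.

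**Figure D2:**
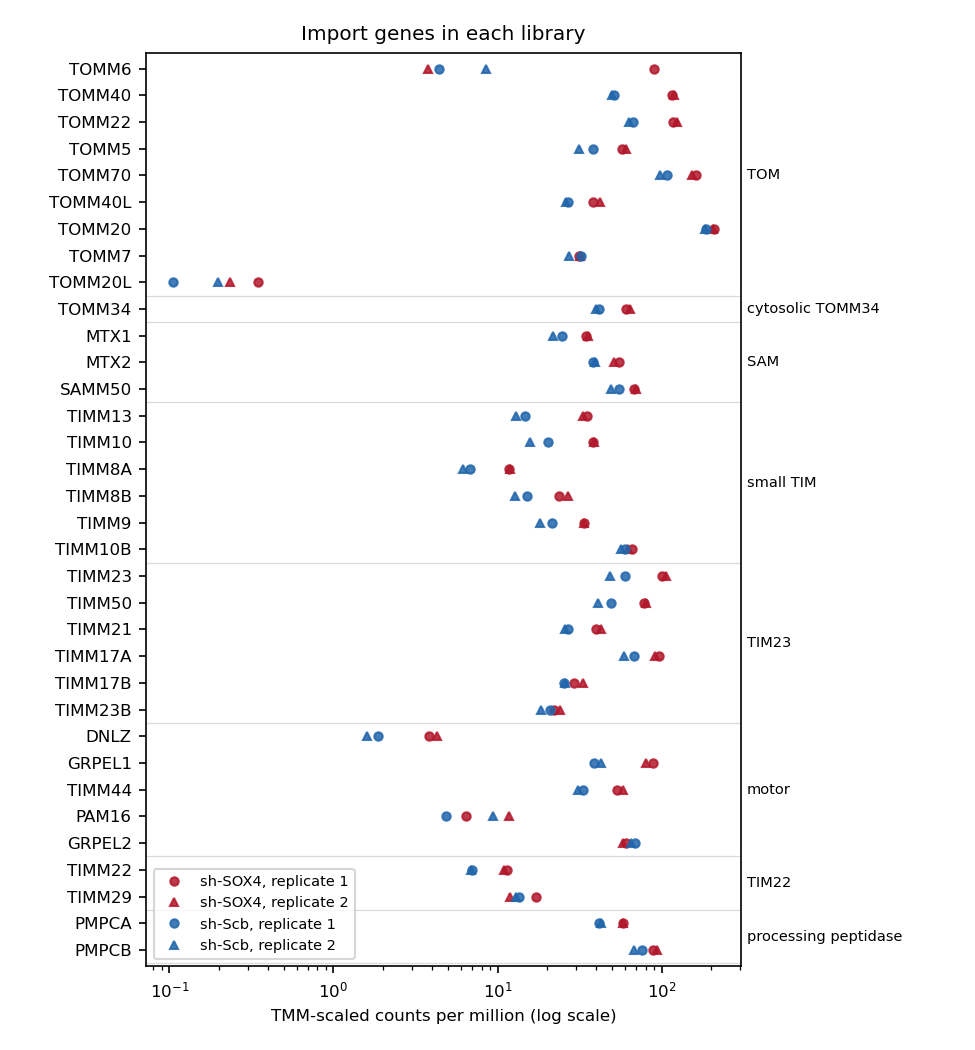
Level of each of the 34 import genes in each library, in TMM-scaled CPM on a log axis, grouped by complex, with sh-SOX4 libraries in red and sh-Scb libraries in blue (circles replicate 1, triangles replicate 2). For most genes the red points lie to the right of the blue ones; the TOMM6 points of sh-SOX4 lie at 89.6 and 3.80 CPM on either side of the sh-Scb points.

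Before the complexes are taken in turn, the promoters of genes on either side of the result are shown, because many of them hold the same short word. Promoter windows from RefSeq on GRCh38.p14, from 250 bases before to 50 bases after the start site, were found for 30 of the 34 members in 31 windows. The motif CCGGAAG, a core of sites bound by ETS family factors including GABPA, stood on either strand in 14 of the 31 windows (45.2%), against 12.8% of 22199 windows of protein-coding genes. These were not limited to genes expressed in Jurkat cells, and well-expressed genes were not compared separately. The close copies TIMM23 and TIMM23B count as separate windows. The last 150 bases before the start site are given below, 5′ to 3′ on the gene's strand, with CCGGAAG or its reverse complement in capitals. TIMM10, TIMM23 and TOMM70 rose, TIMM23B did not pass the test and GRPEL2 fell.
TIMM10 (chr11:57530755-57530904, minus strand): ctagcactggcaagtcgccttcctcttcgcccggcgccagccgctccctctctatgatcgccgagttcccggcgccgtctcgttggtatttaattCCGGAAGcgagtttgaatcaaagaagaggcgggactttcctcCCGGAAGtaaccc
TIMM23 (chr10:45972339-45972488, plus strand): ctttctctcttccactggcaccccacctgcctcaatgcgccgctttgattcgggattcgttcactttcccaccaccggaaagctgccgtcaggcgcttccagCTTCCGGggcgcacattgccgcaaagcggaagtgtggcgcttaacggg
TIMM23B (chr10:49941903-49942052, plus strand): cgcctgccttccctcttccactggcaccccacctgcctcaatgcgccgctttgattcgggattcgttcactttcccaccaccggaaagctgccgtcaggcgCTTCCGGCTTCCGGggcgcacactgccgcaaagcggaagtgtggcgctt
TOMM70 (chr3:100401090-100401239, minus strand): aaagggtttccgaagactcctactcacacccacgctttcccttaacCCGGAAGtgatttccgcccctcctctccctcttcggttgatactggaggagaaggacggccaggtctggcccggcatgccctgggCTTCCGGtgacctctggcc
GRPEL2 (chr5:149345349-149345498, plus strand): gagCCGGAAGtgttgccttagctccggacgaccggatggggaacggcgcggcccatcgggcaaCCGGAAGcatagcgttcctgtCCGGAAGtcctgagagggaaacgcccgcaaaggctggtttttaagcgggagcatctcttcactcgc
GRPEL2, the gene that fell, held 3 copies of the motif in this stretch, and TIMM10, which rose 2.12-fold, held 2. TIMM23 held 1 here, where its close copy TIMM23B held 2 in tandem. The full window of TIMM23 held another match, beginning at base 10 from the start site, outside the stretch printed. A match is a description of these letters and not of a bound site. The call of GRPEL2 as lower was lost in several other settings, given below. The promoters printed are a selection from the 14 windows with the motif, and any part of the motif in the changes was not tested. Among the genes of these windows GRPEL2 fell, while TOMM6, TIMM23B, TIMM10B and TIMM29 did not pass the test. The rest rose. All motifs were searched on both strands and none contains another. Of the others, the E-box CACGTG stood in 3 windows (9.68%, against 8.34%), AAGATGG of YY1 in 4 (12.9%, against 6.04%) and the ATF4 composite TGATGCAAT in 1 (3.23%, against 0.171%). The palindromic consensus of NRF1 stood in 0 of the 31, against 1.5% of all windows, a share too low for 31 windows to show a lack. The exact word ACAAAG, used here for SOX factors, also stood in 0 of the 31, against 13.6%. Other forms of a SOX site were not searched, so whether these promoters hold SOX sites was not tested. The windows of TIMM10, TIMM8A and TOMM20 held the E-box.

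The TOM complex was higher in sh-SOX4, led by its channel. TOMM40, the barrel that forms the pore (chromosome 19, 44890569 to 44903689 on GRCh38), had 3648 and 3543 counts in the sh-SOX4 libraries, against 1934 and 1510 in the sh-Scb libraries. It averaged 117 ± 2.82 CPM in sh-SOX4 and 50.6 ± 0.721 CPM in sh-Scb (SD, n = 2 each). The groups lay far apart, and TOMM40 had the smallest adjusted p of all members, 1.36e-07 from edgeR's quasi-likelihood test, with a log2 fold change of 1.21 (SE 0.053). No exonic base of TOMM40 lies in another annotated gene, but 10.9% of its 50-base words also occur in other genes, so its level is uncertain. TOMM22, the receptor that joins the pores and passes presequences on, had 3726 and 3684 counts in sh-SOX4 (117 and 124 CPM), against 2524 and 1901 in sh-Scb (66.8 and 63.1 CPM). Its log2 fold change was 0.89 (SE 0.056).

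The other receptors moved by unequal amounts. TOMM70, which docks HSP70 and HSP90 bound to carrier precursors, had 5159 and 4552 counts in sh-SOX4 (163 and 153 CPM), against 4099 and 2928 in sh-Scb (108 and 97.2 CPM), a log2 fold change of 0.62 (SE 0.062). TOMM20, the receptor for presequences and the highest of all members in CPM, had 6608 and 6115 counts in sh-SOX4 (208 and 205 CPM), against 7004 and 5518 in sh-Scb (185 and 183 CPM). Its groups did not overlap, but its log2 fold change was only 0.17 (SE 0.043), and the edgeR adjusted p of 0.00979 became 0.0568 without sh-SOX4 replicate 1. With scaling to library totals, its log2 fold change was 0.07 with an adjusted p of 0.224. Between them, the receptors thus ranged from a 1.12-fold to a 1.86-fold difference.

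Of the small TOM subunits, which hold the pore complex together, TOMM5 rose and TOMM7 did not pass. TOMM5 had 1807 and 1795 counts in sh-SOX4 (57.0 and 60.3 CPM), against 1435 and 944 in sh-Scb (38.0 and 31.3 CPM), a log2 fold change of 0.76 (SE 0.094). TOMM7, which also takes part in holding PINK1 at the outer membrane, had 998 and 946 counts in sh-SOX4 (31.5 and 31.8 CPM), against 1225 and 818 in sh-Scb (32.4 and 27.2 CPM). The TOMM7 libraries overlapped, with a log2 fold change of 0.09 (SE 0.10) that turned to -0.04 without sh-Scb replicate 2 and to -0.01 with scaling to library totals. TOMM40L, a relative of TOMM40, had 1205 and 1246 counts in sh-SOX4 (38.0 and 41.9 CPM), against 1021 and 787 in sh-Scb (27.0 and 26.1 CPM), and rose by 0.59 on the log2 scale. TOMM20L, a relative of TOMM20, was barely counted, with 11 and 7 counts in sh-SOX4 and 4 and 6 in sh-Scb, and was not tested. TOMM34, a cytosolic protein that binds HSP70 and HSP90 and is not a TOM subunit, had 1921 and 1899 counts in sh-SOX4 (60.6 and 63.8 CPM), against 1561 and 1204 in sh-Scb (41.3 and 40.0 CPM), a log2 fold change of 0.61 (SE 0.066).

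The TOMM6 row could not be read by itself. TOMM6 had 2842 and 113 counts in the sh-SOX4 libraries, against 166 and 257 in the sh-Scb libraries, so that 1 sh-SOX4 library stood far above the rest and the other below them. All of its exonic bases (chromosome 6, 41787662 to 41789898) also lie in the longer gene ENSG00000124593 on the same strand (41780349 to 41790141). That row moved the other way, with 889 and 3570 counts in sh-SOX4 and 2887 and 2217 in sh-Scb. The 2 rows summed to 118 and 124 CPM in sh-SOX4, against 80.8 and 82.1 CPM in sh-Scb, and these sums agreed within each group. The TOMM6 row alone gave a log2 fold change of 2.87 (SE 2.07) that did not pass, at an edgeR adjusted p of 0.402, and that became -0.75 without sh-SOX4 replicate 1. Fitted as 1 row in an analysis added after seeing the data, the pair rose by 0.57 on the log2 scale (edgeR adjusted p of 1.28e-05). Which part of the sum comes from TOMM6 was not tested.

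**Figure D3:**
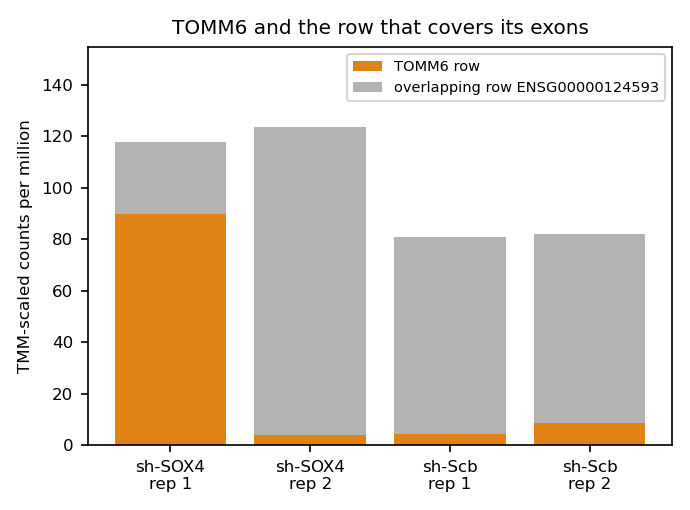
TMM-scaled CPM in each library for the TOMM6 row (orange) and, stacked on it, the row ENSG00000124593 that covers all its exons (grey). The orange part varies from 3.80 to 89.6 CPM, while the stacked total is 118 and 124 CPM in sh-SOX4 and 80.8 and 82.1 CPM in sh-Scb.

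The SAM complex, which folds barrel proteins such as TOMM40 into the outer membrane, rose as a whole, with all 3 members called. SAMM50, its barrel-shaped core, had 2150 and 2083 counts in sh-SOX4 (67.8 and 70.0 CPM), against 2091 and 1482 in sh-Scb (55.3 and 49.2 CPM), a log2 fold change of 0.40 (SE 0.070). MTX2, a metaxin on the cytosolic face, had 1743 and 1516 counts in sh-SOX4 (55.0 and 50.9 CPM), against 1440 and 1189 in sh-Scb (38.1 and 39.5 CPM), and rose by 0.45 (SE 0.073). MTX1, its partner, had 1095 and 1057 counts in sh-SOX4 (34.5 and 35.5 CPM), against 932 and 655 in sh-Scb (24.7 and 21.7 CPM), and rose by 0.59 (SE 0.094). The groups did not overlap in any of the 3. For MTX1, 21.9% of exonic bases are shared with other genes, THBS3 among them, which itself fell by 0.43 on the log2 scale. Of its 50-base words, 15.5% also occur in the pseudogene MTX1P1, so its level is uncertain.

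The small TIM chaperones held 5 risers among 6 members, the highest median of the groups with more than 5 members, at 0.86 on the log2 scale. They shield hydrophobic precursors in the intermembrane space, as hexamers of TIMM9 with TIMM10 or of TIMM8A with TIMM13. TIMM13 had 1109 and 983 counts in sh-SOX4, against 554 and 391 in sh-Scb, or 34.0 ± 1.38 CPM in sh-SOX4 and 13.8 ± 1.18 CPM in sh-Scb (SD, n = 2 each). Its log2 fold change of 1.30 (SE 0.10) was the largest of the called members. Of the exonic bases of TIMM13, 28.9% are shared with other genes, so its level is uncertain. On the same strand it shares bases with LMNB2, which fell by 0.21 on the log2 scale. On the opposite strand it shares bases with TMPRSS9, which had 11 and 16 counts in sh-SOX4 and 9 and 14 in sh-Scb. TIMM10 had 1205 and 1159 counts in sh-SOX4 (38.0 and 38.9 CPM), against 773 and 472 in sh-Scb (20.4 and 15.7 CPM), a log2 fold change of 1.09 (SE 0.12). No exonic base of TIMM10 lies in another annotated gene.

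The remaining chaperones rose by similar amounts, with 1 exception. TIMM9 had 1067 and 1004 counts in sh-SOX4 (33.6 and 33.7 CPM), against 814 and 548 in sh-Scb (21.5 and 18.2 CPM), and rose by 0.76 (SE 0.10). TIMM8A, an X-linked gene, had 371 and 357 counts in sh-SOX4 (11.7 and 12.0 CPM), against 257 and 185 in sh-Scb (6.80 and 6.14 CPM), and rose by 0.87 (SE 0.14). TIMM8B, its relative, had 754 and 798 counts in sh-SOX4 (23.8 and 26.8 CPM), against 572 and 384 in sh-Scb (15.1 and 12.7 CPM), and rose by 0.86 (SE 0.12). Of the 50-base words of TIMM8B, 24.9% also occur in NKAPD1 on the opposite strand, which rose by 0.54. The exception was TIMM10B, a subunit that sits on the TIM22 complex, with 65.8 and 62.3 CPM in sh-SOX4, against 59.5 and 56.5 CPM in sh-Scb. Its groups did not overlap, but the log2 fold change of 0.14 (SE 0.063) had an edgeR adjusted p of 0.090.

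The TIM23 channel of the inner membrane rose in 5 of 6 members. TIMM23, the channel protein, had 3189 and 3171 counts in sh-SOX4 (101 and 107 CPM), against 2259 and 1460 in sh-Scb (59.8 and 48.5 CPM), a log2 fold change of 0.93 (SE 0.097). TIMM50, the receptor that takes over precursors from TOM, had 2462 and 2376 counts in sh-SOX4 (77.6 and 79.8 CPM), against 1869 and 1239 in sh-Scb (49.4 and 41.1 CPM), and rose by 0.80 (SE 0.085). TIMM21, which links the channel to TOM and to the respiratory chain, had 1261 and 1272 counts in sh-SOX4 (39.8 and 42.7 CPM), against 1015 and 776 in sh-Scb (26.8 and 25.8 CPM), and rose by 0.65 (SE 0.084). For each of these genes the groups lay apart by more than the spread within either. TIMM23 and TIMM50 were higher in sh-Scb replicate 1 than in sh-Scb replicate 2, as was the sum over all members.

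TIMM17A and TIMM17B are alternative partners of TIMM23, of which TIMM17A is the short-lived form that is removed under stress. TIMM17A had 3040 and 2711 counts in sh-SOX4 (95.9 and 91.1 CPM), against 2560 and 1783 in sh-Scb (67.7 and 59.2 CPM), and rose by 0.56 (SE 0.070). TIMM17B, on the X chromosome, had 924 and 985 counts in sh-SOX4 (29.1 and 33.1 CPM), against 965 and 778 in sh-Scb (25.5 and 25.8 CPM), a log2 fold change of 0.28 (SE 0.095) with an edgeR adjusted p of 0.0380. That call was lost without sh-SOX4 replicate 2 (adjusted p of 0.270), without sh-Scb replicate 1 (0.0736) and without sh-Scb replicate 2 (0.0531). TIMM23B, a copy of TIMM23 on the same chromosome, had 704 and 714 counts in sh-SOX4 (22.2 and 24.0 CPM), against 786 and 556 in sh-Scb (20.8 and 18.5 CPM), and did not pass the test at an adjusted p of 0.101. Of the 50-base words in TIMM23 transcripts, 17.0% also occur in TIMM23B, so reads from the pair can be exchanged and both levels are uncertain.

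The matrix motor, which pulls precursors through TIM23, held 3 genes that rose and 1, GRPEL2, with a small call lower that was lost in several other settings. GRPEL1, a nucleotide exchange factor that resets HSPA9 (chromosome 4, 7058906 to 7068197), had 2793 and 2405 counts in sh-SOX4, against 1470 and 1279 in sh-Scb. It averaged 84.4 ± 5.14 CPM in sh-SOX4 and 40.7 ± 2.53 CPM in sh-Scb (SD, n = 2 each), and rose by 1.05 on the log2 scale (SE 0.071), at an edgeR adjusted p of 1.81e-06. GRPEL2, its relative (chromosome 5, 149345430 to 149354583), had 1932 and 1730 counts in sh-SOX4, against 2607 and 1966 in sh-Scb. It averaged 59.5 ± 1.98 CPM in sh-SOX4 and 67.1 ± 2.60 CPM in sh-Scb (SD, n = 2 each). GRPEL2 was thus the only member called lower, at -0.17 on the log2 scale (SE 0.062), with an edgeR adjusted p of 0.0433. The call was lost without sh-SOX4 replicate 1 (adjusted p of 0.0722), without sh-SOX4 replicate 2 (0.204) and without sh-Scb replicate 1 (0.218), while the log2 fold change stayed below 0.

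The other motor genes were higher or could not be called. TIMM44, the scaffold that ties HSPA9 to the channel, had 1695 and 1735 counts in sh-SOX4 (53.4 and 58.3 CPM), against 1246 and 929 in sh-Scb (33.0 and 30.8 CPM), and rose by 0.81 (SE 0.079). DNLZ, an escort that keeps HSPA9 soluble, was a low-count gene, with 122 and 127 counts in sh-SOX4 and 71 and 48 in sh-Scb, and rose by 1.22 (SE 0.24). Of its exonic bases, 26.9% are shared with other genes, mostly CARD9 on the same strand, so its level is uncertain. CARD9 had 21 and 62 counts in sh-SOX4 and 36 and 36 in sh-Scb. PAM16, a J-like protein that holds back the J-protein of the motor, had 203 and 352 counts in sh-SOX4 (6.40 and 11.8 CPM), against 184 and 284 in sh-Scb (4.87 and 9.43 CPM). Replicate 2 was above replicate 1 in both groups, which overlapped, and the log2 fold change of 0.36 (SE 0.49) turned to -0.15 without sh-SOX4 replicate 2 and to -0.05 without sh-Scb replicate 1. The readthrough gene CORO7-PAM16 covers 21.9% of the exonic bases of PAM16 and had 121 and 1 counts in sh-SOX4, against 32 and 5 in sh-Scb. Fitted as 1 row, added after seeing the data, the pair had a log2 fold change of 0.53 that did not pass either, at an edgeR adjusted p of 0.111.

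In the TIM22 complex, which inserts carriers into the inner membrane, TIMM22 rose and TIMM29 did not pass. TIMM22, the channel, had 362 and 326 counts in sh-SOX4 (11.4 and 11.0 CPM), against 265 and 207 in sh-Scb (7.01 and 6.87 CPM), a log2 fold change of 0.69 (SE 0.14). TIMM29, a subunit of the complex found in animals, had 542 and 353 counts in sh-SOX4 (17.1 and 11.9 CPM), against 513 and 388 in sh-Scb (13.6 and 12.9 CPM). The sh-SOX4 libraries lay on either side of the sh-Scb ones, and the log2 fold change of 0.13 (SE 0.17) became -0.15 without sh-SOX4 replicate 1. Both subunits of the matrix processing peptidase rose. PMPCA, which recognises the presequence, had 1846 and 1740 counts in sh-SOX4 (58.2 and 58.5 CPM), against 1581 and 1291 in sh-Scb (41.8 and 42.9 CPM), and rose by 0.46 (SE 0.065). PMPCB, which cuts it, had 2802 and 2784 counts in sh-SOX4 (88.3 and 93.5 CPM), against 2854 and 2050 in sh-Scb (75.5 and 68.1 CPM), and rose by 0.34 (SE 0.064). PMPCB shares 13.0% of its exonic bases with DNAJC2 on the opposite strand, which rose by 1.38 on the log2 scale, and its part in the PMPCB count was not tested.

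**Figure D4:**
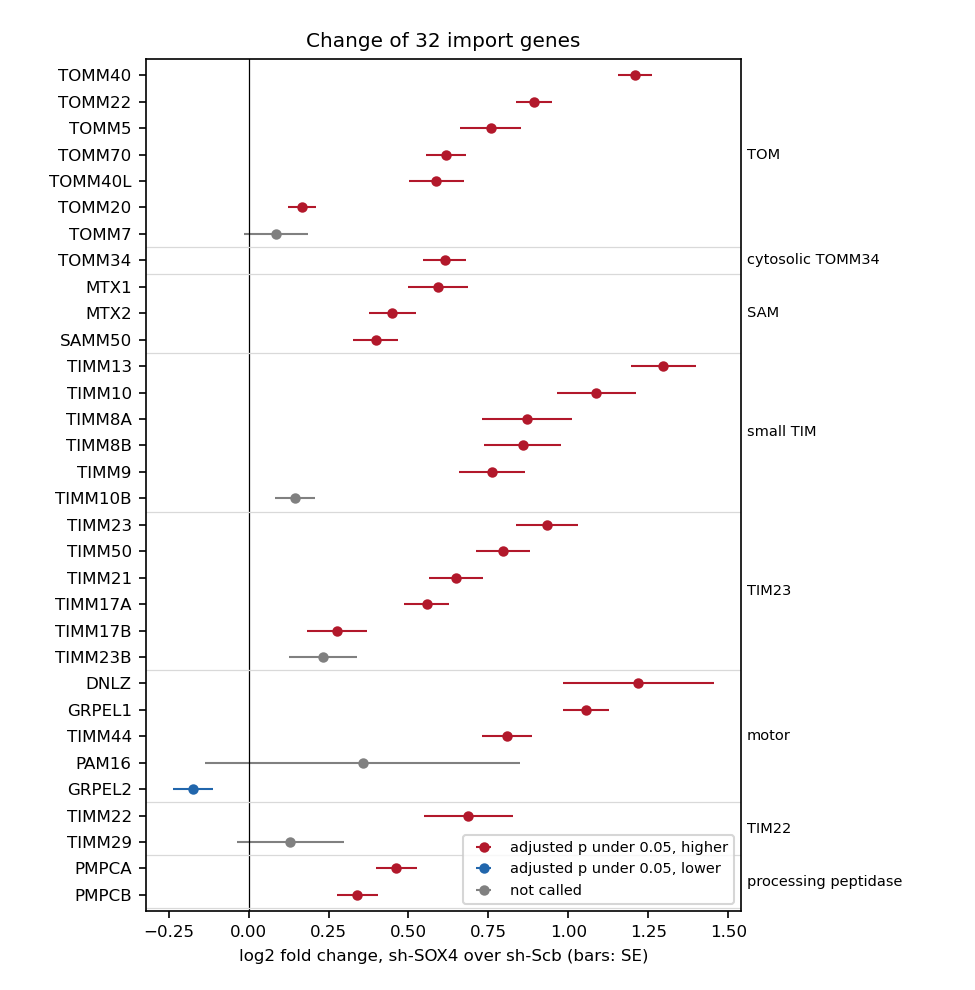
Log2 fold change of sh-SOX4 over sh-Scb with its SE (x axis) for 32 tested import genes grouped by complex, in red where higher and in blue where lower at an adjusted p under 0.05, and in grey where not called. TIMM13 at 1.30 and TOMM40 at 1.21 lie to the right, GRPEL2 at -0.17 alone to the left of 0; TOMM6, at 2.87 with an SE of 2.07, is left out to keep the scale.

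Summed by complex, the level was higher in sh-SOX4 for each of the 8 groups of members, with ratios between 1.27 and 1.59. The small TIM chaperones summed to 208 and 207 CPM in sh-SOX4 and to 138 and 122 CPM in sh-Scb, a ratio of 1.59. The TIM23 channel summed to 365 and 377 CPM in sh-SOX4 and to 250.1 and 219 CPM in sh-Scb, a ratio of 1.58. The TOM complex without TOMM6 summed to 730.3 and 735 CPM in sh-SOX4 and to 509 and 479 CPM in sh-Scb, a ratio of 1.48. The motor had a ratio of 1.43, SAM of 1.37 and the processing peptidase of 1.31. The lowest ratio, 1.27, was that of TIM22, whose sh-SOX4 libraries summed to 28.5 and 22.8 CPM and its sh-Scb libraries to 20.6 and 19.8 CPM.

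Levels of different genes were compared per kilobase of exon (CPM per kilobase, all annotated exons of a gene merged). Which annotated exons these cells use was not tested, so the order of genes is uncertain. TIMM23 had the highest mean of the members in sh-SOX4, with 82.3 and 87.2 CPM per kilobase, against 48.9 and 39.7 in sh-Scb. TOMM20 had the highest mean in sh-Scb, with 58.8 and 58.0 CPM per kilobase in sh-SOX4 against 52.3 and 51.7 in sh-Scb. In sh-Scb replicate 1 the gap between TOMM20 and TIMM23 was smaller than the gap between the TIMM23 levels of the 2 sh-Scb libraries. TOMM40 had 31.9 and 33.0 CPM per kilobase in sh-SOX4, rank 6 of 34, against 14.2 and 13.9 in sh-Scb, rank 13. At the low end stood TIMM22, TIMM8A, DNLZ and TOMM20L, in ranks 31 to 34 in both groups.

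The balance within pairs of related genes was compared as a ratio in each library. The level of GRPEL1 per kilobase was 1.53 and 1.47 times that of GRPEL2 in the sh-SOX4 libraries, against 0.597 and 0.688 times in the sh-Scb libraries, so the order of the pair differed between the groups. TIMM10 was at 2.26 and 2.44 times TIMM10B in sh-SOX4, against 1.35 and 1.09 times in sh-Scb. That order rests on merged exon lengths of 777 bases for TIMM10 and 3041 for TIMM10B. In CPM, TIMM10 lay below TIMM10B in every library. TOMM40 was at 2.76 and 2.59 times TOMM40L in sh-SOX4, against 1.73 and 1.75 times in sh-Scb. In each of these pairs the libraries of the groups did not overlap. TIMM17A over TIMM17B did not overlap either, at 2.40 and 2.01 in sh-SOX4 against 1.93 and 1.67 in sh-Scb, nor did TIMM23 over TIMM23B, at 11.3 and 11.1 in sh-SOX4 against 7.19 and 6.57 in sh-Scb. The ratios of TIMM8A to TIMM8B, PMPCA to PMPCB and MTX1 to MTX2 overlapped between the groups. With 2 libraries against 2, the two-sided exact permutation test cannot go below 0.333, which was its p for each of the 5 pairs that did not overlap, and 0.533 after Benjamini-Hochberg adjustment over 8 pairs. This design cannot pass that test, so its p says nothing for or against a difference. On the log2 scale, the GRPEL1 to GRPEL2 ratio was higher by 1.23 in sh-SOX4, where the SD over libraries was 0.04 in sh-SOX4 and 0.15 in sh-Scb. The TIMM23 pair was added after seeing the data.

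**Figure D5:**
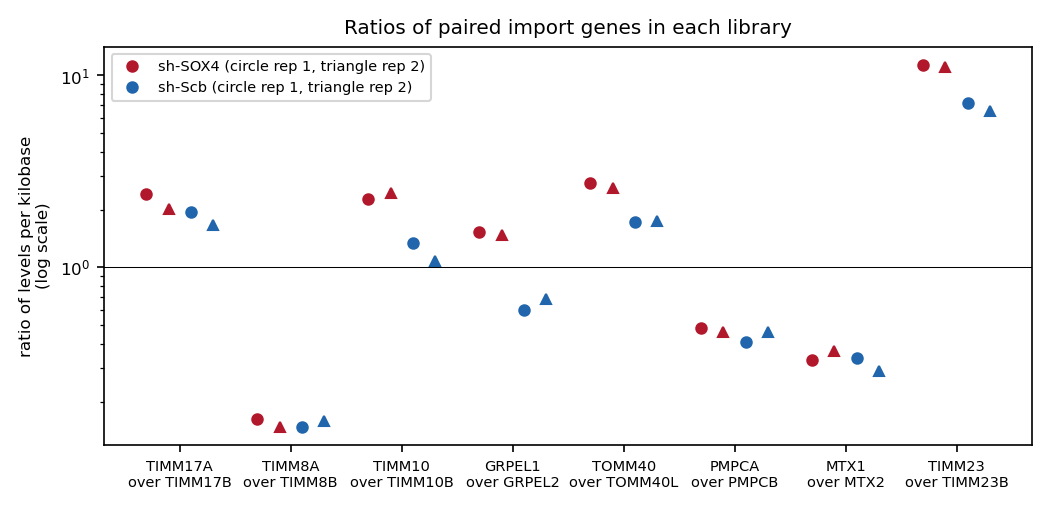
Ratio of the levels per kilobase of 8 pairs of import genes in each library (log axis), with sh-SOX4 in red and sh-Scb in blue, circles for replicate 1 and triangles for replicate 2. GRPEL1 over GRPEL2 lies above 1 in both sh-SOX4 libraries (1.53 and 1.47) and below 1 in both sh-Scb libraries (0.597 and 0.688).

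What surrounds the annotated exons was compared across members. Of the 22 members with at most 10% of exonic bases in other genes, 18 rose and 1 fell. Of the 14 with none shared, 12 rose and none fell, TOMM7 and TIMM29 being those not called, with a median log2 fold change of 0.72. This measure counts annotated overlap only and not sequence repeated elsewhere. Among these 14, 17.0% of the 50-base words of TIMM23 also occur in TIMM23B. For TOMM40, 10.9% of such words also occur in other genes. The shares called over all IDs tested were 23.2% higher and 20.9% lower. Of the 11 tested members with more than 10% shared, 8 rose, among them TIMM9 (30.5% shared), TOMM40L (20.2%) and TOMM5 (18.7%). The genes lie on 18 chromosomes, chromosome 19 holding 5 of them. TOMM20L and TIMM9 overlap each other on opposite strands of chromosome 14.

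Genes that work beside the import machinery, from lists outside the rule, were read in the same fit. There 23.2% of all IDs tested were called higher and 20.9% lower. In the fit of IDs with at least 10 CPM in 2 libraries, 33.1% were called higher and 33.1% lower. All 10 genes of precursor delivery in the cytosol rose, among them HSPA8, HSP90AB1 and HSP90AA1, the chaperones that dock on TOMM70. HSP90AA1 averaged 2942 ± 27.5 CPM in sh-SOX4 and 1271 ± 51.7 CPM in sh-Scb (SD, n = 2 each). HSPA8 had a log2 fold change of 1.95 and HSP90AB1 of 1.38. Both genes of the nascent chain complex on the list, NACA and BTF3, rose too, by 0.34 (SE 0.045) and 0.47 (SE 0.045). In the test against 1.2-fold, the NACA call was lost (edgeR adjusted p of 0.0514).

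Of 12 import partners, 7 rose, 1 fell and 4 did not pass, ROMO1, MTX3, GFER and MTCH2. With library totals, the calls of AGK and OXA1L were lost (edgeR adjusted p of 0.0751 and 0.0674), and that of AGK also without sh-SOX4 replicate 2 (0.0891) or sh-Scb replicate 1 (0.0644). HSPA9, the motor's HSP70, had 624 and 626 CPM in sh-SOX4, against 328 and 321 CPM in sh-Scb, and rose by 0.94 (SE 0.039) with an edgeR adjusted p of 8.90e-08. DNAJC11, found with the SAM and MICOS complexes, rose by 0.88 (SE 0.056). CHCHD4, the oxidase that traps proteins in the intermembrane space, rose by 0.76 (SE 0.12). MTCH1, a relative of the outer membrane insertase MTCH2, had 77.8 and 85.1 CPM in sh-SOX4, against 96.7 and 97.0 CPM in sh-Scb, and fell by 0.25 on the log2 scale. Its edgeR adjusted p of 0.00555 became 0.0549 without sh-SOX4 replicate 1.

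The mitochondrial proteases and peptidases held 10 risers among 14 genes and 1 that fell. Among the risers, HTRA2 lost its call with library totals (edgeR adjusted p of 0.157), with the filter of 10 CPM (0.0692), without sh-SOX4 replicate 2 (0.162) and without sh-Scb replicate 2 (0.0915). CLPP, the matrix protease, averaged 71.3 ± 0.809 CPM in sh-SOX4 and 36.9 ± 0.190 CPM in sh-Scb (SD, n = 2 each) and rose by 0.95 (SE 0.062). AFG3L2, a subunit of the inner membrane protease, rose by 0.60 (SE 0.050), and PITRM1, which degrades cleaved presequences, by 0.48 (SE 0.053). SPG7, the partner of AFG3L2, fell by 0.22 on the log2 scale, a call lost without sh-SOX4 replicate 1 (edgeR adjusted p of 0.0823) or without sh-Scb replicate 2 (0.117). All 4 genes of matrix folding rose: HSPD1 had a log2 fold change of 1.32, TRAP1 of 0.96, DNAJA3 of 0.78 and HSPE1 of 1.44. Of 7 MICOS genes, which shape the cristae, 4 rose and none fell, among them MICOS10 by 0.94 (SE 0.098), CHCHD3 by 0.60 (SE 0.063) and MICOS13 by 0.75 (SE 0.13).

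Of the kinase and ubiquitin genes that act on TOM, 2 of 6 tested rose and 1 fell, which is near the shares over all IDs tested. PINK1, the kinase that gathers on TOM when import fails, had 20.1 and 21.2 CPM in sh-SOX4, against 39.8 and 40.0 CPM in sh-Scb, and fell by 0.95 on the log2 scale with an edgeR adjusted p of 1.30e-05. For PINK1, 41.7% of exonic bases are shared with other genes. CSNK2A1 and CSNK2A2, the catalytic subunits of casein kinase 2, known in yeast to phosphorylate TOM receptors, rose by 0.36 (SE 0.041) and 0.33 (SE 0.043). CSNK2B, the regulatory subunit, differed between sh-SOX4 libraries, at 1.29 and 18.1 CPM, against 25.3 and 19.8 CPM in sh-Scb. The medians of the lists were 0.26 for import partners, 0.40 for proteases, 0.53 for MICOS, 1.14 for matrix folding, 0.70 for cytosolic delivery and -0.04 for the kinase and ubiquitin genes, beside -0.01 for all IDs tested.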

How the data were processed

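Total RNA was isolated with TRIzol, and a TruSeq RNA kit was used for the libraries, per the labels' protocols. The authors deposited whole-number counts per Ensembl gene ID, not normalized, in 1 column for each library. Per the submitters' processing notes, the tools were HISAT2 2.2.0 and StringTie, and the build hg38. For the annotation release and strand setting, the sources used here give nothing, so reads of a gene and an overlapping or antisense one may be mixed. Columns named NC were taken as sh-Scb, since the remaining ones name SOX4. The labels do not say whether replicates were separate cultures. The p-values set the group difference against the scatter of these samples, which may be technical, and may not hold for independent cultures. Replicates differed by more than sampling noise (median chi-square per gene 1.60 in sh-SOX4 and 1.71 in sh-Scb, against 0.455).

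Symbols, coordinates, exon lengths and overlaps came from GENCODE release 29 on GRCh38, which holds 56591 of the 64252 IDs. Low counts were removed by edgeR 4.0.16 (filterByExpr, at least 10 counts and a total of 15). After TMM scaling, groups were fitted with the robust quasi-likelihood model in R 4.3.3, with Benjamini-Hochberg adjustment over all 19897 IDs. The pipeline was tested on simulated counts. The SE is the log2 fold change divided by the square root of F. Other settings were size factors by median ratio, plain library totals, every ID kept, a filter of 10 CPM in 2 libraries, the replicate number as block, single libraries left out, DESeq2 1.42.0, limma-voom (limma 3.58.1) and a test against 1.2-fold. Summing rows that overlap TOMM6 or PAM16 was added after seeing the data. The members and lists were chosen with earlier results of these data known. Every member is reported; of other lists, the 3 genes with the smallest adjusted p and those called against the majority were named, and other named genes were chosen after their values were seen. Some genes of these lists are not reported here. Floors cover counting error only.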

Additional observations from a re-analysis of the deposited data

How the results depend on the processing

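Of the 26 members called higher, 23 were called in every setting that tested them. TIMM17B and TOMM20 lost the call in several settings, among them library totals (adjusted p of 0.159 and 0.224), and PMPCB in the test against 1.2-fold (adjusted p of 0.124). The count of members called lower, 1 in the report, was 0 with no filter, with the replicate block, with DESeq2, with limma-voom and in the test against 1.2-fold, and ran from 0 to 1 when single libraries were left out. The median log2 fold change of the tested members was 0.52 with library totals, 0.55 with the filter of at least 10 CPM and 0.62 to 0.69 with single libraries left out.

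In the test against 1.2-fold, 5348 IDs were called, 2757 higher and 2591 lower. With the replicate block 25 members were called higher and 8378 IDs were called in all; deviations of same-numbered libraries had a correlation of -0.022 across genes, so the numbers were not taken as pairs. In 4 members that were not called, the log2 fold change turned sign. With single libraries left out it ran from -0.75 to 3.81 for TOMM6, from -0.15 to 0.37 for TIMM29, from -0.15 to 0.90 for PAM16 and from -0.040 to 0.22 for TOMM7. With library totals it was -0.014 for TOMM7. The cause was not tested, except that the TOMM6 value follows from leaving out the library with 2842 counts. TOMM6 summed with ENSG00000124593 passed, at 0.57. Of the other lists' genes named or counted as higher, HTRA2, AGK, OXA1L, MIPEP, CLPX, DNAJB6, NACA and CSNK2A2 lost the call in the test against 1.2-fold. With 2 libraries in each group, the fit of all libraries left 2 residual degrees of freedom for each gene. Its estimate of the spread also drew on the other genes tested.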
